A study of Mus musculus with 9 samples.

Results

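The transcription factors known for dividing spinal motor neurons into columns and pools that were followed here are Foxp1, Runx1, Etv1, Etv4, Pou3f1 and Nkx6-1, each measured in 3 groups of mouse motor neurons. Their probe sets were those of the array whose annotation names 1 of the 6 factors and no other gene. That rule gave 19 of 45037 probe sets, and 5 of the 18193 genes measured: Foxp1 with 8 probe sets, Runx1 with 6, Etv4 and Pou3f1 with 2 each, and Nkx6-1 with 1. Etv1 had none, because all 3 of its probe sets are annotated to the pseudogene Gm5454 as well. Those 3 are described apart, as probe sets of Gm5454 and Etv1 together.

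The neurons came from 3 untreated wild-type male C57BL/6J mice at postnatal day 7 and were cut by laser from 12 µm frozen sections stained with cresyl violet. The L5 pool held motor neurons of the fifth lumbar segment, the DL pool those of the dorsolateral nucleus in spinal segment L6, and the OMN pool those of the oculomotor nucleus in the midbrain. In rodents the dorsolateral nucleus supplies perineal muscles, the external urethral sphincter among them, lumbar motor neurons supply the hindlimb and trunk, and oculomotor neurons move the eye. About 200 neurons per pool and animal were collected, and each pool was measured on 3 arrays; the series compares pools that differ in how vulnerable they are to amyotrophic lateral sclerosis.

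A motor column is a long strip of motor neurons that sends its axons to one region of the body, and a pool is the smaller cluster that supplies a single muscle. Hox proteins, acting with the forkhead factor Foxp1, set up the limb columns of the embryonic cord, and signals from the limb then switch on ETS factors such as Etv1 and Etv4 in particular pools. Runx1, Pou3f1 and Nkx6-1 mark further subsets of spinal motor neurons, whereas the oculomotor neurons of the midbrain form outside the territory that Hox genes pattern.

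Deposited intensities were on a linear scale. The highest value of 27 bacterial control probe sets that had not been spiked in, 18.3, was taken as the noise level. Of the 19 member probe sets, 17 exceeded it on at least 1 array and 8 on all 9. Tests were made with limma on log2(intensity + 16), a scale on which differences of dim probe sets are understated, and a gene or probe set with a Benjamini-Hochberg adjusted p under 0.05 over all genes or all probe sets is called higher or lower. For gene values, the brightest probe set stood for the gene.

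The motor neuron genes Slc5a7, Slc18a3, Prph and Nefh were well above noise on all 9 arrays, the lowest value being 773.8 for Slc18a3, while the probe set of Chat reached at most 24.5. Array medians were 32 to 34.3 in L5, 26.4 to 29.7 in DL and 33.6 to 35.5 in OMN. RNA quality was followed by the Gapdh controls, as the intensity at the 3′ end over that at the 5′ end. This ratio was 2.45 to 2.53 in L5 and 2.33 to 2.67 in OMN; in DL it was 3.27, 2.44 and 3.75 on arrays 1 to 3, so DL arrays 1 and 3 stood apart from the other 7. Calls that rest on DL and change without both of those arrays are given below with the difference found there. DL is then array 2 alone, assumed to vary like the L5 and OMN arrays, and fewer degrees of freedom remain, so these p-values are printed as measured and are not read as a test of RNA quality. In pooled cells, fewer cells with a transcript and less transcript per cell cannot be told apart.

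Promoters of the members were read from a table of RefSeq starts (GRCm38.p6), in which 4 of the 6 genes were matched, with 3 starts for Foxp1, 2 each for Runx1 and Etv1 and 1 for Nkx6-1. Windows of 250 bases before to 50 after each start were searched on both strands for TAATTA (the core that homeodomain factors such as Nkx6-1 bind), TGTGGT (Runt domain), GTAAACA (forkhead), CCGGAAG (ETS) and ATGCAAAT (POU octamer). Foxp1 and Runx1 were the 2 member genes called for DL minus OMN, where the 3 probe sets of Gm5454 and Etv1 were called too. The match of Etv1 is given below by its position only. Sequences with a match are shown for Foxp1 and Runx1. The first is the 250 bases before the second Foxp1 start, counted 5′ to 3′ along the gene (chr6:99266516-99266765, minus strand, GRCm38.p6), with TAATTA in capitals. The second is a stretch of 30 bases after the first Runx1 start (chr16:92826025-92826054, minus strand, GRCm38.p6), with ACCACA, the reverse complement of TGTGGT, in capitals.
Foxp1 start 2: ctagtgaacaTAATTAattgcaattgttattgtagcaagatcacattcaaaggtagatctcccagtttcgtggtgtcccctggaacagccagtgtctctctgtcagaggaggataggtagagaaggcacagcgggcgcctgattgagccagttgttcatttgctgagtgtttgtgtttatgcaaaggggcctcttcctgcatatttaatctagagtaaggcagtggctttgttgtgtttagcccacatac
Runx1 start 1: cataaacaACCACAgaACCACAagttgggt

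The TAATTA of Foxp1 began 240 bases before the start, and 5.29% of 32851 RefSeq mouse promoter windows held that motif. The pair of ACCACA in Runx1 lay within bases 29 to 42 after its start, and TGTGGT in either orientation was present in 16.8% of the windows. The first Etv1 start had 1 TGTGGT, which began 192 bases before it. The other 5 member promoters held none of the motifs, which occurred in 3.65% (GTAAACA), 8.86% (CCGGAAG) and 1.74% (ATGCAAAT) of all windows. The motifs did not overlap one another in these windows, and a match describes the letters only.

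Foxp1, which lets Hox proteins assign limb column identity, was several-fold brighter in both spinal pools than in OMN. Its brightest probe set, 1455242_at, read 706.1, 463.8 and 495.1 in L5, 1039, 1098.6 and 2136 in DL, and 55.7, 252.2 and 68.4 in OMN. The 3 ranges did not overlap, and DL lay highest and OMN lowest. Mean intensities were 555 ± 132 in L5, 1425 ± 617 in DL and 125 ± 110 in OMN (SD, n = 3 each). The log2 difference was 3.54 ± 0.52 for DL minus OMN (SE, limma adjusted p = 0.0160). It was 2.26 ± 0.52 for L5 minus OMN (limma adjusted p = 0.0909) and -1.28 ± 0.52 for L5 minus DL (limma adjusted p = 0.247), neither of which passed. Without the replicate number as a block, which no label ties to an animal, the L5 minus OMN difference did pass (limma adjusted p = 0.0431).

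**Figure D1:**
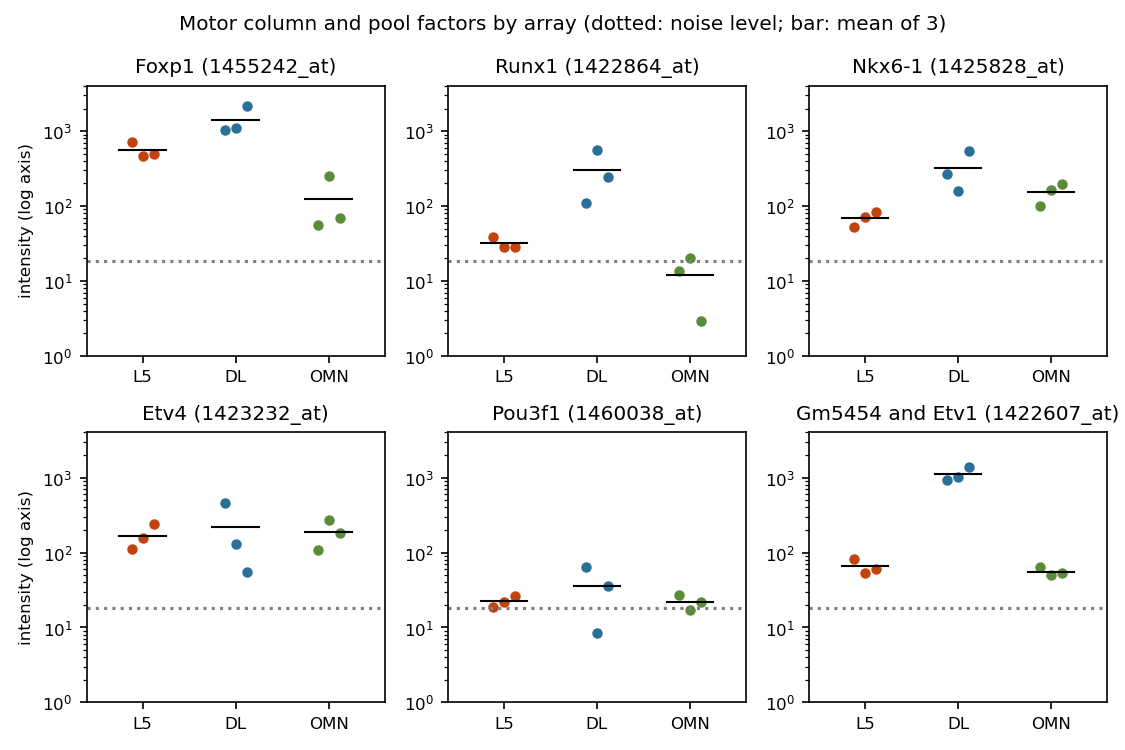
Intensity of the brightest probe set of each factor on every array, with L5, DL and OMN along the horizontal axis and intensity on a log vertical axis; points are arrays, bars the means of 3 and the dotted line the noise level of 18.3. Foxp1 was lowest in OMN, Runx1 and the probe set of Gm5454 and Etv1 were highest in DL, and the Etv4 and Pou3f1 points of the pools overlap.

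The wide OMN spread of 1455242_at came from OMN array 2, at 252.2. The other Foxp1 probe sets did not single out that array in the same way. Probe set 1435222_at read 439.2, 550.6 and 440.3 in L5, 1202.3, 1196.5 and 1139.4 in DL, and 89.5, 97 and 115.4 in OMN. Probe set 1435221_at read 282.8, 319.8 and 292.6 in L5, 312.2, 379.7 and 350 in DL, and 43.4, 49.4 and 51.6 in OMN. In both, every spinal array was brighter than every OMN array, and the 3 values of a pool lay close together. Probe set 1421140_a_at read 239.1, 219.2 and 232.7 in L5, 390.6, 447.4 and 630.1 in DL, and 29.6, 38.6 and 72.7 in OMN, again without overlap between pools.

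The fit of single probe sets therefore gave Foxp1 calls that the brightest probe set alone did not. For L5 minus OMN, 4 of the 19 member probe sets were called higher and none lower, all 4 of them Foxp1, against 1.03% of all 45037 probe sets called in either direction and 0.437% called higher. The log2 differences were 2.29 ± 0.17 for 1435221_at (SE, limma adjusted p = 0.00258) and 2.08 ± 0.19 for 1435222_at (limma adjusted p = 0.00558). They were 2.03 ± 0.23 for 1421140_a_at (limma adjusted p = 0.0123) and 2.32 ± 0.33 for 1421141_a_at (limma adjusted p = 0.0280). The last of these was at or below noise on all 3 OMN arrays, so its intensity was at least 5.89-fold higher in L5 and at least 9.30-fold higher in DL, as the geometric mean of the brighter pool over the noise level. Only 1435221_at kept its call in all 20 alternative settings, with adjusted p from 0.000226 to 0.0470. Leaving out 1 array ended the call of 1435222_at without L5 array 2 (adjusted p = 0.0541), OMN array 1 (0.0519) or OMN array 2 (0.0579), over alternatives that ranged from 0.000273 to 0.0731. It ended that of 1421140_a_at without L5 array 1 or 2 or any OMN array (0.0523 to 0.102; alternatives 0.00263 to 0.102), and that of 1421141_a_at without L5 array 2 or 3, any OMN array or DL array 2 (0.0510 to 0.164; alternatives 0.00601 to 0.164).

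For DL minus OMN, 7 of the 19 member probe sets were called higher and none lower, beside 1.92% of all probe sets called and 0.75% called higher. Of the 7, 5 were Foxp1. Their log2 differences ranged from 2.50 ± 0.17 for 1435221_at (SE, limma adjusted p = 0.00131) to 3.54 ± 0.52 for 1455242_at (limma adjusted p = 0.0227), with 3.36 ± 0.19 for 1435222_at (limma adjusted p = 0.00064) between them. With DL array 2 as the only DL array, the differences were 3.30 for 1435222_at (adjusted p = 0.0548), 3.04 for 1421140_a_at (0.0755), 2.56 for 1435221_at (0.0656), 2.91 for 1421141_a_at (0.123) and 2.76 for 1455242_at (0.208), and for Runx1 they were 4.26 for 1422864_at (0.0546) and 2.85 for 1422865_at (0.0581). None of the 7 passed in that fit. Over its 20 alternatives the 1435222_at difference ranged from 2.92 to 3.58 and its adjusted p from 3.44e-06 to 0.0548. The call held whichever single array was left out for 1435222_at, 1421140_a_at and 1435221_at. Probe set 1421141_a_at lost it without OMN array 2 (0.0592) or 3 (0.0582), and 1455242_at without L5 array 3 (0.0601), OMN array 1 (0.122) or 3 (0.120), or DL array 1 (0.0776) or 3 (0.0702).

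The gene value of Foxp1 for DL minus OMN was less stable, and was called in 13 of 21 alternatives with adjusted p from 0.000278 to 0.162. The call was lost without OMN array 1 (adjusted p = 0.0928), OMN array 3 (0.0877), DL array 1 (0.0620) or DL array 3 (0.0552). Without both DL arrays 1 and 3 the difference was 2.76 (adjusted p = 0.162). For L5 minus OMN the gene value was called in 4 of 21 alternatives, with adjusted p from 0.00322 to 0.305. One of the 4 was the fit without OMN array 2, where the difference was 2.98 (adjusted p = 0.0389).

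The Foxp1 probe sets differed among themselves in how they ordered the spinal pools. Probe set 1435222_at was lower in L5 than in DL, with a log2 difference of -1.29 ± 0.19 (SE, limma adjusted p = 0.0331; called in 7 of 20 alternatives, adjusted p from 0.00745 to 0.217). That call was lost when any 1 of the 9 arrays was left out, with adjusted p from 0.0655 to 0.148, and without DL arrays 1 and 3 the difference was -1.22 (adjusted p = 0.217). For 1435221_at, designed on the same target transcript, the difference was -0.21 ± 0.17 (limma adjusted p = 0.629). For 1421142_s_at the means ran the other way, at 84 ± 29.8 in L5 and 49.2 ± 22.7 in DL (SD, n = 3 each), with overlapping ranges. In OMN that probe set averaged 27.2 ± 4.62, and it was called in none of the comparisons. Probe sets 1438802_at and 1443258_at stayed near or below noise, with highest values of 19.1 and 17.6.

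**Figure D2:**
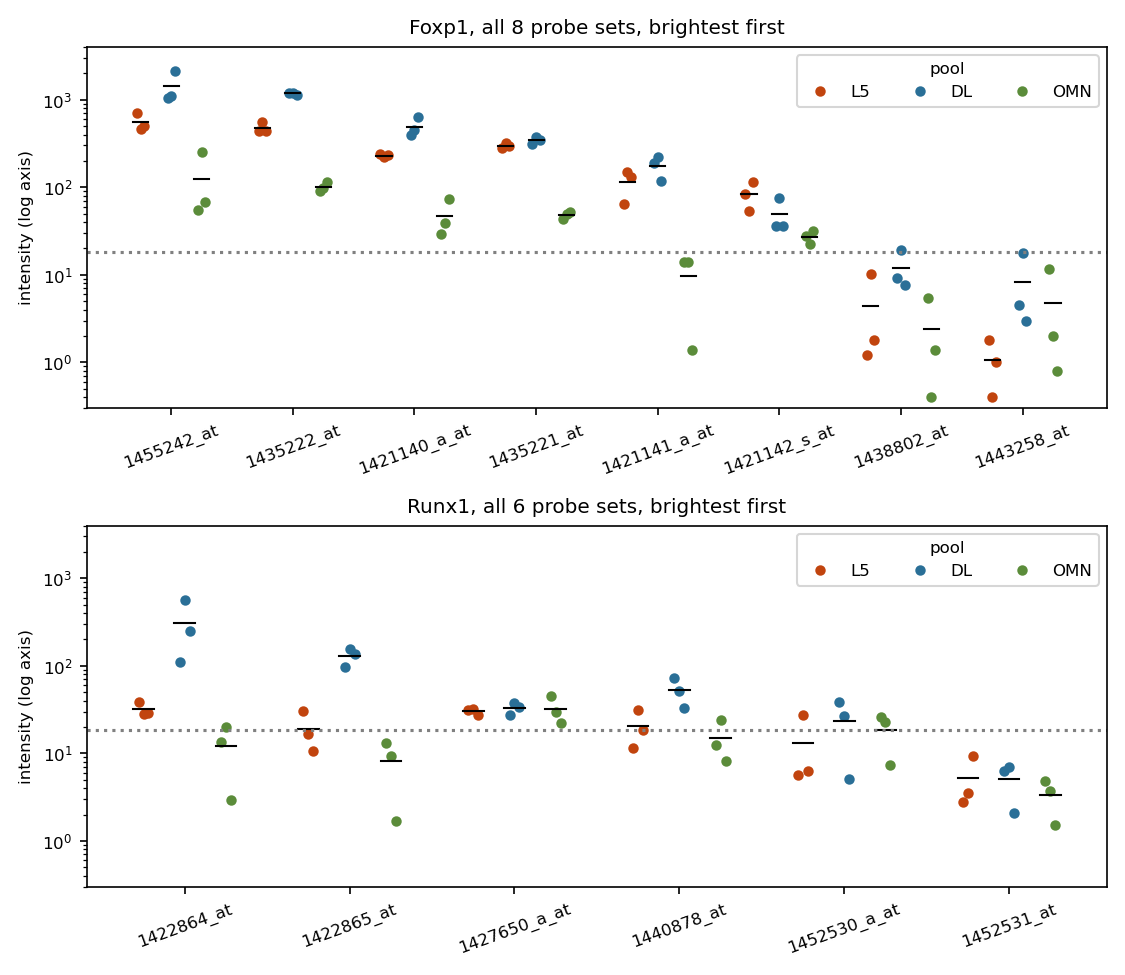
Intensity of all 8 Foxp1 and all 6 Runx1 probe sets on a log vertical axis, brightest first, with points for arrays, bars for means of 3 and a dotted line at the noise level of 18.3. The 6 brightest Foxp1 probe sets place every L5 and DL array above every OMN array, and the Runx1 probe sets 1422864_at, 1422865_at and 1440878_at place every DL array above every L5 and OMN array. The share of all probe sets that separate the pools in these ways was not counted.

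Runx1, a Runt-domain factor known from subsets of spinal motor neurons and also from pain-sensing neurons and blood cells, was brightest in DL. Probe set 1422864_at read 38.9, 28 and 28.6 in L5, 109.3, 562.8 and 247.8 in DL, and 13.6, 20.1 and 2.9 in OMN. Every DL array exceeded every array of the other pools, and only 1 of the 3 OMN arrays was above noise. Means were 31.8 ± 6.13 in L5, 307 ± 232 in DL and 12.2 ± 8.69 in OMN (SD, n = 3 each). The log2 difference was 3.30 ± 0.46 for DL minus OMN (SE, limma adjusted p = 0.0124) and -2.49 ± 0.46 for L5 minus DL (limma adjusted p = 0.0416). For L5 minus OMN it was 0.81 ± 0.46 (limma adjusted p = 0.448), so the order of L5 and OMN was not resolved although their ranges were apart. These p-values are adjusted over genes. Adjusted over all probe sets, the L5 minus DL value of 1422864_at was 0.0546 and did not pass, against 0.0322 without the replicate block.

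The second Runx1 probe set, 1422865_at, shares its target transcript with 1422864_at. It read 30.2, 16.8 and 10.6 in L5, 96.8, 156.8 and 135.3 in DL, and 13.1, 9.4 and 1.7 in OMN. DL was again above both other pools on every array, and L5 and OMN overlapped around the noise level. The log2 difference was 2.61 ± 0.28 for DL minus OMN (SE, limma adjusted p = 0.00737) and -2.06 ± 0.28 for L5 minus DL (limma adjusted p = 0.0244). Both calls depended on single arrays: the first was lost without OMN array 2 (0.0524) or 3 (0.0574), and the second held without DL array 1 only (0.0539 to 0.140 in the other 8 fits). Without DL arrays 1 and 3 the L5 minus DL difference of 1422865_at was -2.31 (adjusted p = 0.113). DL was at least 6.95-fold higher than OMN, where all 3 arrays were at or below noise. Probe set 1440878_at averaged 20.3 ± 9.92 in L5, 52.4 ± 20 in DL and 14.9 ± 8.17 in OMN (SD, n = 3 each), with every DL array above every L5 and OMN array. Its differences of 1.14 ± 0.27 for DL minus OMN (SE, limma adjusted p = 0.102) and -0.91 ± 0.27 for L5 minus DL (limma adjusted p = 0.168) did not pass. The remaining 3 Runx1 probe sets, 1427650_a_at, 1452530_a_at and 1452531_at, reached at most 45, 39 and 9.4, and none of them was called.

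Among genes, 2 of the 5 members, Foxp1 and Runx1, were called higher in DL than in OMN and none lower, beside 3.02% of 18193 genes called and 1.37% called higher. Runx1 kept this call in 16 of 21 alternatives, with adjusted p from 0.000991 to 0.0771. It was lost without OMN array 2 (adjusted p = 0.0771), OMN array 3 (0.0752) or DL array 3 (0.0550). With DL array 2 left out, which held the highest Runx1 value, the difference was 2.81 (adjusted p = 0.0373). With DL array 2 as the only DL array it was 4.26 (adjusted p = 0.0271).

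Cells of 2 other kinds that use Runx1 were looked for in the same arrays. The summed intensity of 7 microglia and blood cell markers was 704 to 863 in L5, 412, 1091 and 485 on DL arrays 1 to 3, and 596 to 837 in OMN. DL array 2 had the highest Runx1 value and the highest marker sum, most of which was C1qb at 747.7. The other markers did not share that rise. On DL array 2, Aif1 was at its lowest of the 9 arrays (20.2), and Cx3cr1 (3.1) and C1qa (12.8) were below noise. Csf1r read 285.6 there, below every L5 array. DL arrays 1 and 3 had lower marker sums and higher Runx1 values than every L5 array. Itgam was below noise on all 9 arrays. The sum of 5 sensory ganglion markers was 76.7 to 140 in L5, 1405 to 2202 in DL and 349 to 498 in OMN. Of these 5, Scn11a and Pirt, known from pain-sensing neurons, were called higher in DL than in L5 and OMN. Scn10a and Trpv1, also known from such neurons, were below noise on all 9 arrays. The fifth, Pou4f1, averaged 62.5 in L5, 185 in DL and 365 in OMN, and so made up most of the OMN sum. What either kind of cell contributed to the Runx1 values was not tested.

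Markers of other cells also differed between the pools. The sum of 5 interneuron markers was 2130 to 2710 in L5, 5302 to 6019 in DL and 3058 to 3857 in OMN, with 2 of the 5 called lower and 1 higher for L5 minus DL, and 1 lower and 2 higher for DL minus OMN. Of all genes, 2.55% were called for L5 minus DL and 3.02% for DL minus OMN. The sum of 5 oligodendrocyte markers was 11099 to 12031 in L5, 15301 to 17440 in DL and 8667 to 10056 in OMN, and 1 of them (Cldn11) was called higher in DL than in both other pools. The astrocyte sum of 6 markers was 12211 to 12828 in L5, 12155 to 13923 in DL and 10471 to 11155 in OMN. Within it Gfap, the intermediate filament of astrocytes, averaged 325 in L5, 1550 in DL and 18 in OMN, the same order as the brightest Foxp1 probe set, and was called in all 3 pairs. The sum of 3 Schwann cell markers was 2033.4 to 2566.5 in L5, 965.5 to 1620.4 in DL and 231.3 to 347.6 in OMN, and 1 of them (Pmp22) was called in all 3 pairs. Pmp22 made up most of the L5 and DL sums, averaging 2060 in L5, 875 in DL and 135 in OMN. Sox10 averaged 272 in L5, 354 in DL and 143 in OMN and was not called, and Cdh19 read at most 23. For 6 endothelial markers the sum was 579.6 to 992.2 in L5, 1251.8 to 1700.1 in DL and 1060.7 to 1213.5 in OMN, and none of them was called. The part of any of these markers in the differences of Foxp1, Runx1, Nkx6-1 and the probe sets of Gm5454 and Etv1 was not tested.

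Nkx6-1, a homeodomain factor of motor neuron progenitors that stays on in some motor neurons, was measured by 1 probe set, 1425828_at. It read 53, 70.4 and 82.2 in L5, 266, 158.3 and 539.4 in DL, and 100.1, 162.6 and 196.3 in OMN. L5 was below both other pools on every array, while DL and OMN overlapped. Means were 68.5 ± 14.7 in L5, 321 ± 196 in DL and 153 ± 48.8 in OMN (SD, n = 3 each). The log2 difference for L5 minus DL was -1.85 ± 0.32 (SE, limma adjusted p = 0.0358). It was -0.97 ± 0.32 for L5 minus OMN (limma adjusted p = 0.208) and 0.88 ± 0.32 for DL minus OMN (limma adjusted p = 0.240), and neither passed.

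Nkx6-1 and Runx1 were the 2 of 5 member genes called lower in L5 than in DL, and none was higher, beside 2.55% of all genes called and 1.28% called lower. At the level of probe sets, 3 of 19 were called lower (1422865_at of Runx1, 1425828_at of Nkx6-1 and 1435222_at of Foxp1) and none higher, beside 1.37% of all probe sets called and 0.666% called lower. Neither gene call was firm. Nkx6-1 was called in 9 of 21 alternatives (adjusted p from 0.0106 to 0.213) and Runx1 in 7 of 21 (adjusted p from 0.00765 to 0.160). Of the 9 fits that left out 1 array, Nkx6-1 was called only without DL array 2 (adjusted p = 0.0225) and Runx1 only without DL array 1 (adjusted p = 0.0306). The other 8 gave adjusted p from 0.0570 to 0.149 for Nkx6-1 and from 0.0690 to 0.160 for Runx1, whichever of the remaining L5, DL and OMN arrays was removed. Without DL arrays 1 and 3, which had the higher Gapdh ratios and the higher Nkx6-1 values, the Nkx6-1 difference for L5 minus DL was -0.97 (adjusted p = 0.213) and that of Runx1 was -3.46 (adjusted p = 0.0705).

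For L5 minus OMN 0 of the 5 member genes were called by limma, beside 2.17% of all genes. An unadjusted p under 0.05 was found for 2 of the 5, beside 2901 of all 18193 genes. For the mean of L5 and DL minus OMN, a comparison of spinal with oculomotor neurons, Foxp1 and Runx1 were called higher and none lower, beside 2.37% of genes called and 1.11% called higher. The differences were 2.90 ± 0.45 for Foxp1 (SE, limma adjusted p = 0.0244) and 2.05 ± 0.40 for Runx1 (limma adjusted p = 0.0489). Of the probe sets 6 were called higher, beside 1.43% called and 0.586% called higher, and the 3 Foxp1 probe sets 1421140_a_at, 1435221_at and 1435222_at kept that call in all 19 alternatives. The Runx1 gene call held in 8 of 20 alternatives (adjusted p from 0.0111 to 0.243), and without DL array 1 but in no other fit lacking 1 array. The Foxp1 gene call held in 12 of 20 (adjusted p from 0.000457 to 0.156) and was lost without L5 array 1, 2 or 3 (0.0604, 0.0542 and 0.0820), OMN array 1 or 3 (0.156 and 0.149) or DL array 1 (0.0540). With DL array 2 as the only DL array, the spinal mean minus OMN was 2.51 for Foxp1 (adjusted p = 0.0896 over genes, and 0.125 over probe sets for 1455242_at) and 2.62 for 1421141_a_at (0.0630).

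**Figure D3:**
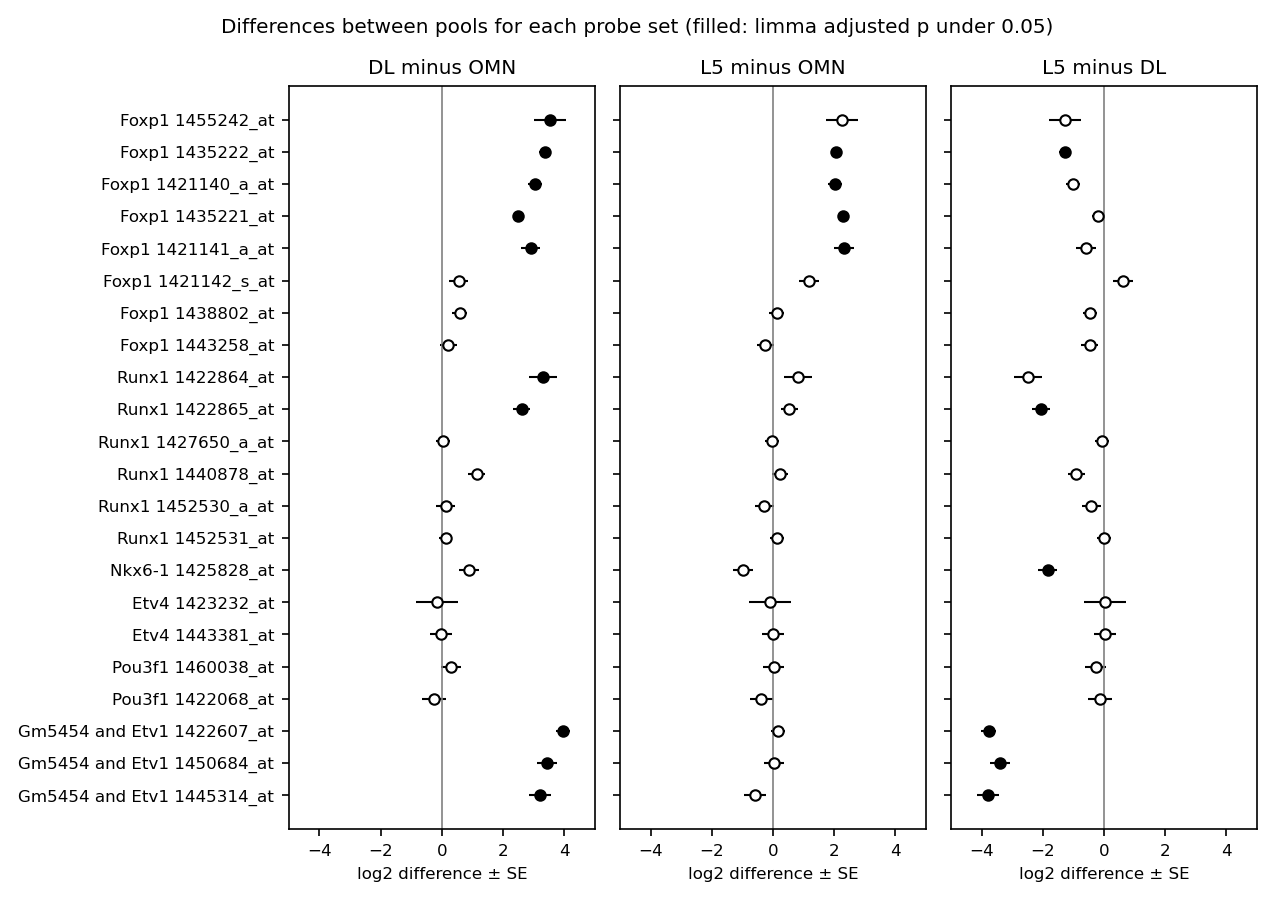
Log2 difference with its SE for every probe set of the factors, for DL minus OMN, L5 minus OMN and L5 minus DL; filled points have a limma adjusted p under 0.05 in the fit of all probe sets. The called Foxp1 differences lie between 2.03 and 3.54 against OMN, and the 3 probe sets of Gm5454 and Etv1 lie above 3 for DL minus OMN and below -3 for L5 minus DL.

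The 3 probe sets annotated to both Gm5454 and Etv1 had high values in DL and low ones in both other pools. Etv1 is an ETS factor of motor pools and of the sensory neurons that supply muscle spindles. Probe set 1422607_at read 82.6, 53.8 and 60.4 in L5, 920.2, 1023.5 and 1377.1 in DL, and 63.8, 50.8 and 52.7 in OMN. Each DL value was more than 11 times the highest value of the other pools. Probe set 1450684_at averaged 73.1 ± 49.2 in L5, 859 ± 197 in DL and 64.7 ± 20.1 in OMN, and 1445314_at averaged 12.7 ± 9.28, 379 ± 131 and 26.8 ± 15 in the same pools (SD, n = 3 each). In all 3 probe sets no DL array overlapped the other pools, and the L5 and OMN ranges overlapped. How many of all probe sets separate DL in this way was not counted. The sensory ganglion, interneuron and oligodendrocyte sums given above were highest in DL as well, and Scn11a averaged 19.9 in L5, 609 in DL and 26.4 in OMN.

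For DL minus OMN the log2 differences were 3.95 ± 0.23 for 1422607_at (SE, limma adjusted p = 0.00064), 3.45 ± 0.32 for 1450684_at (limma adjusted p = 0.00451) and 3.22 ± 0.37 for 1445314_at (limma adjusted p = 0.00878). For L5 minus DL they were -3.78 ± 0.23 (limma adjusted p = 0.00392), -3.40 ± 0.32 (limma adjusted p = 0.00880) and -3.80 ± 0.37 (limma adjusted p = 0.00916). None was called for L5 minus OMN, where no unadjusted p was under 0.05. The DL minus OMN call of 1422607_at held in all 20 alternatives (adjusted p from 8.94e-06 to 0.0448). Its L5 minus DL call held in 15 of 20 (adjusted p from 4.36e-05 to 0.113) and was lost without L5 array 2 (adjusted p = 0.0521). Both 1422607_at and 1450684_at were designed on a transcript that RefSeq lists under Etv1; the intensity was not divided between Etv1 and Gm5454, and a contribution of the pseudogene was not tested. The L5 minus DL call was lost without L5 array 1 (0.0725) or 2 (0.0825) for 1450684_at, and without any L5 array or DL array 1 (0.0502 to 0.0706) for 1445314_at, which also lost the DL minus OMN call without OMN array 2 (0.0619) or 3 (0.0582). With DL array 2 as the only DL array, the DL minus OMN differences were 3.18 for 1450684_at (0.0744) and 2.98 for 1445314_at (0.141), and the L5 minus DL differences were -3.84 for 1422607_at (0.113), -3.14 for 1450684_at (0.113) and -3.56 for 1445314_at (0.136).

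Etv4, an ETS factor that muscle-derived GDNF switches on in a few limb and trunk muscle pools, showed no resolved difference. Probe set 1423232_at read 110.4, 154.5 and 240.6 in L5, 464.6, 130.8 and 55.7 in DL, and 108.7, 269.2 and 180.2 in OMN. All values were above noise and the 3 pools overlapped, with the widest spread in DL. The log2 difference for DL minus OMN was -0.15, with a 95% confidence interval of -1.77 to 1.46, and that for L5 minus OMN was -0.11, with an interval of -1.72 to 1.50. These data therefore leave room for a difference of more than 1 log2 unit either way. Probe set 1443381_at was dim, at 2.4 to 31.2 over the 9 arrays.

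Pou3f1, a POU factor of distal forelimb pools, was close to the noise level. Probe set 1460038_at read 18.9, 22.1 and 26.7 in L5, 63.8, 8.5 and 35.4 in DL, and 27.4, 17 and 21.8 in OMN, and the pools overlapped. The difference for DL minus OMN was 0.30, with a 95% confidence interval of -0.49 to 1.08. Probe set 1422068_at lay between 1.7 and 21.5. Neither Etv4 nor Pou3f1 was called in any comparison or under any alternative that was run.

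Relatives and partners of the factors were taken as a list of 14 measured genes, with other Foxp, Runx, Pou3f and Nkx6 genes, Etv5, and proteins that bind Runx factors. By limma 0 of the 14 were called for L5 minus OMN, beside 2.17% of all genes. An unadjusted p under 0.05 was found for 5 of the 14, beside 2901 of all 18193 genes. The median log2 difference of the list was -0.35 there, against 0.01 over all genes. For L5 minus DL and DL minus OMN, 2.55% and 3.02% of all genes were called. Of the list, 1 gene was called in both, Cbfb, the partner that strengthens DNA binding of Runx proteins. It read 893, 921.6 and 816.3 in L5, 3017.7, 2605.8 and 3078 in DL, and 1447, 1343.4 and 1542.9 in OMN. The pools did not overlap, and DL was highest, as for Runx1, with L5 rather than OMN lowest. The log2 difference was -1.71 ± 0.18 for L5 minus DL (SE, limma adjusted p = 0.00770) and 1.00 ± 0.18 for DL minus OMN (limma adjusted p = 0.0360). The DL minus OMN call held in 8 of 21 alternatives (adjusted p from 0.00158 to 0.250) and in none of the 9 fits without 1 array (0.0615 to 0.158). The L5 minus DL call held in 16 of 21 (adjusted p from 5.62e-05 to 0.107) and was lost without L5 array 1 (adjusted p = 0.0597).

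Signals that act before these factors and genes known to depend on them formed a list of 15. Aldh1a2, which makes retinoic acid and is found in Foxp1-dependent limb motor neurons, read 2512.5, 2534.6 and 1806.3 in L5, 256, 129.9 and 235.2 in DL, and 8.4, 34.5 and 5.3 in OMN. The order was thus L5, DL, OMN, whereas the order of L5 and DL was not resolved for Foxp1 by its gene value. Of the OMN arrays, 1 of 3 was above noise, and over the alternatives the L5 minus OMN difference ranged from 4.88 to 7.46. All 3 steps passed: the log2 difference was 6.26 ± 0.39 for L5 minus OMN (SE, limma adjusted p = 0.000679), 3.40 ± 0.39 for L5 minus DL (limma adjusted p = 0.0102) and 2.86 ± 0.39 for DL minus OMN (limma adjusted p = 0.0117). The L5 minus DL call was lost without L5 array 1 (adjusted p = 0.0719), 2 (0.0758) or 3 (0.0614), and the DL minus OMN call without OMN array 1 (0.0709), OMN array 3 (0.0725) or DL array 1 (0.0586). Over their alternatives the adjusted p ranged from 0.000204 to 0.0964 for L5 minus DL and from 0.000516 to 0.115 for DL minus OMN.

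Sema3e, a secreted semaphorin that in the mouse cervical cord is made by an Etv4-expressing pool, read 49.7, 111.6 and 72.4 in L5, 2073.4, 1989.4 and 2182.6 in DL, and 1692.7, 1269.1 and 1668.3 in OMN. Both other pools exceeded L5 by more than 10-fold on every array. The log2 difference was -4.53 ± 0.28 for L5 minus DL (SE, limma adjusted p = 0.00307) and -4.09 ± 0.28 for L5 minus OMN (limma adjusted p = 0.000869). Irx3, a homeodomain factor of the early ventral cord, averaged 75.2 ± 17.2 in L5, 37.7 ± 20.6 in DL and 271 ± 52.3 in OMN (SD, n = 3 each) and was called lower in DL than in OMN, by -2.48 ± 0.33 (SE, limma adjusted p = 0.0108; 0.00214 to 0.0836 over its alternatives). That call was lost without OMN array 1 (0.0539), 2 (0.0673) or 3 (0.0546). No other gene of this list was called in a pairwise comparison. Gdnf was below noise on every array, with a highest value of 13.6, so its missing call says nothing about a difference. Of its receptor genes, Ret averaged 4354 ± 973 in L5, 3076 ± 530 in DL and 3068 ± 664 in OMN. Gfra1 averaged 2674 ± 329 in L5, 2369 ± 82.6 in DL and 1412 ± 289 in OMN. Every spinal array exceeded every OMN array for Gfra1, although no difference passed. In all, 1 of the 15 was higher and 1 lower for L5 minus OMN, 1 and 1 for L5 minus DL, and 1 and 1 for DL minus OMN, beside 2.17%, 2.55% and 3.02% of all genes called. The list medians were -0.05, 0.17 and 0.29, against 0.01, 0.06 and -0.04 for all genes.

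**Figure D4:**
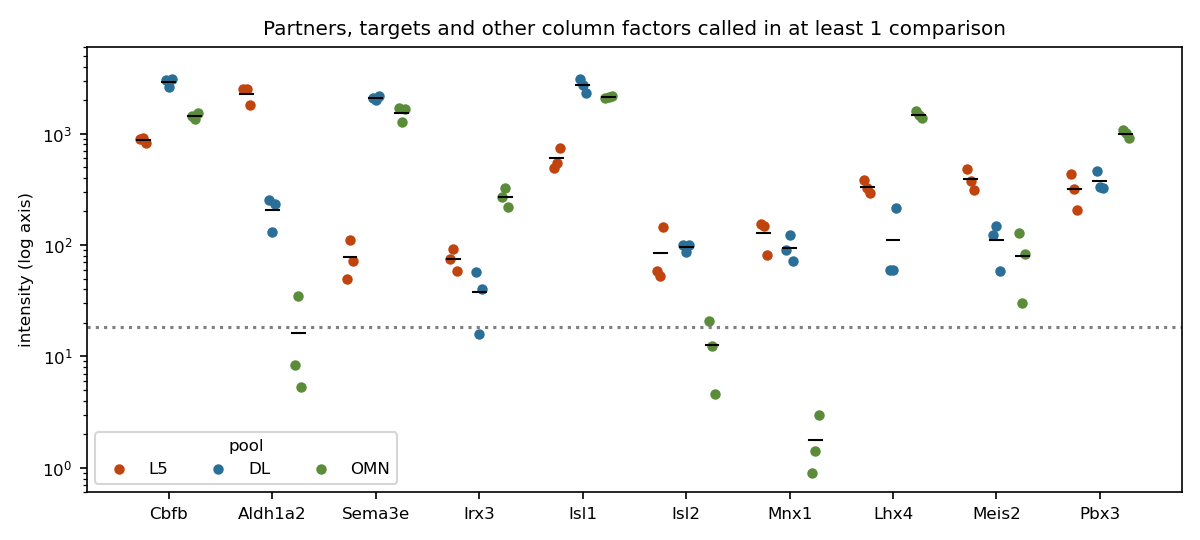
Intensity on a log vertical axis of the 10 partners, targets and other column factors called in at least 1 comparison, with L5, DL and OMN side by side; points are arrays, bars the means of 3 and the dotted line the noise level of 18.3. Cbfb was brightest in DL, Aldh1a2 fell in the order L5, DL, OMN, Sema3e was lowest in L5, and Mnx1 and Isl2 were lowest in OMN.

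Other factors of motor columns formed a list of 13. For L5 minus OMN 2 were called higher (Mnx1 and Meis2) and 2 lower (Isl1 and Pbx3), and for DL minus OMN 2 were higher (Isl2 and Mnx1) and 2 lower (Lhx4 and Pbx3). Isl1 was the only one called for L5 minus DL, and it was lower in L5. Of all genes, 2.17% were called for L5 minus OMN, 3.02% for DL minus OMN and 2.55% for L5 minus DL. Mnx1, a homeodomain factor shared by spinal motor neurons, read 155.6, 147 and 80.9 in L5, 89.7, 122.5 and 71.3 in DL, and 0.9, 1.4 and 3 in OMN, all 3 OMN values being below noise. Its difference was 2.97 ± 0.25 for L5 minus OMN (SE, limma adjusted p = 0.00251) and 2.61 ± 0.25 for DL minus OMN (limma adjusted p = 0.00295). As the OMN values were all below noise, the pseudocount sets much of these differences, which ranged from 1.52 to 5.56 and from 1.26 to 5.15 over the alternatives. By the noise level, Mnx1 was at least 6.71-fold higher in L5 and at least 5.04-fold higher in DL than in OMN.

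Isl1, a LIM factor of all young motor neurons, averaged 598 ± 134 in L5, 2717 ± 414 in DL and 2129 ± 45.7 in OMN (SD, n = 3 each). Its difference was -2.16 ± 0.23 for L5 minus DL (SE, limma adjusted p = 0.00770) and -1.83 ± 0.23 for L5 minus OMN (limma adjusted p = 0.0122). Lhx4, a LIM factor of newborn motor neurons, averaged 332 ± 46.5 in L5, 111 ± 89.2 in DL and 1479 ± 122 in OMN (SD, n = 3 each), and the difference for DL minus OMN was -3.77 ± 0.40 (SE, limma adjusted p = 0.00476). Pbx3, a Hox cofactor, was lower than in OMN by -1.65 ± 0.21 in L5 (SE, limma adjusted p = 0.0130) and by -1.39 ± 0.21 in DL (limma adjusted p = 0.0182). Meis2, another Hox cofactor, was higher in L5 than in OMN by 2.20 ± 0.41 (SE, limma adjusted p = 0.0438), but by 0.75 with the mean of all its probe sets (limma adjusted p = 0.123). Isl2, the close relative of Isl1, was higher in DL than in OMN by 2.01 ± 0.36 (SE, limma adjusted p = 0.0339).

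Several of these calls were lost when 1 array was left out. Meis2 for L5 minus OMN kept its call without DL array 2 only (adjusted p from 0.0519 to 0.190 in the other 8 fits lacking 1 array, and 0.00704 to 0.190 over all alternatives). Isl2 for DL minus OMN kept it without L5 array 3 only (0.0520 to 0.112 in the other 8, and 0.0116 to 0.200 over all alternatives). Isl1 lost the L5 minus OMN call without any of OMN arrays 1 to 3 or L5 arrays 1 and 2 (0.0751 to 0.0860), and the L5 minus DL call without L5 array 1 (0.0563) or 2 (0.0640). Pbx3 lost the L5 minus OMN call without any L5 or OMN array (0.0580 to 0.0908) and the DL minus OMN call without any OMN array or DL array 1 or 2 (0.0606 to 0.106). The Mnx1 and Lhx4 calls given above held in each of the 9 fits. With DL array 2 as the only DL array, none of the 18193 genes passed for L5 minus DL, although the differences were -1.57 for Cbfb, 4.43 for Aldh1a2, -4.36 for Sema3e and -2.23 for Isl1. For DL minus OMN they were then 1.83 for Aldh1a2 (adjusted p = 0.115), 0.86 for Cbfb (0.250), 2.10 for Isl2 (0.200), 2.87 for Mnx1 (0.0572), -1.57 for Pbx3 (0.115), -3.42 for Irx3 (0.0232) and -4.27 for Lhx4 (0.0157).

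Genes with the profile nearest to each called member were found by the root mean square difference of log2 profiles, centred on their means, over the 9 arrays, among 10345 named genes with a mean intensity of at least 50. Nearest to Foxp1 were Tagln2 (0.42 log2 units), Vwa5a (0.60) and Glra2 (0.61). Glra2, a glycine receptor subunit, averaged 2263 in L5, 3115 in DL and 370 in OMN. Nearest to Runx1 were Gabre (0.47), Lix1 (0.53) and Ccdc172 (0.60); Gabre, a GABA-A receptor subunit, averaged 17.6 in L5, 175 in DL and 7.5 in OMN. Gabre and Ccdc172 (2.47 in L5, 160 in DL and 2.23 in OMN) averaged below noise in L5 and OMN and reached the minimum of 50 through DL alone, so their likeness to Runx1 rests on the DL arrays. Lix1 averaged 53.8 in L5, 365 in DL and 31.9 in OMN. Its mean over the L5 and OMN arrays was below 50, so it too met the minimum through DL. Nearest to Nkx6-1 were Rec114 (0.28), Tgfbr2 (0.32) and Zfp14 (0.39). Zfp14 averaged 21.7 in L5, 160 in DL and 51 in OMN, and likewise met the minimum of 50 only through DL. All of these profiles share the same 9 arrays, so that likeness is a description of these libraries.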

How the data were processed

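The authors deposited 1 table of intensity values on a linear scale for 45101 probe sets of an Affymetrix mouse genome array. After trimming 2% at both ends, the mean was 250.0 on every array, which shows scaling to a common target; the sources used here do not name the program. Per the labels' protocols, RNA (1.5 ng or more) went through whole-transcript amplification.

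Samples were grouped by their titles. The 64 control probe sets were left out, and genes were named from the platform annotation. In R 4.3.3, limma 3.58.1 was fitted to log2(intensity + 16) (lmFit, contrasts.fit and eBayes), with pool as the factor and replicate number as a block, over all 9 arrays, by gene (18193, brightest probe set) and by probe set (45037), with Benjamini-Hochberg adjustment. The fit was tested on simulated data. Alternatives changed the pseudocount (1 or 64), scaling, variance model, weights, block, filter, summary of probe sets or arrays entered, or added the Gapdh ratio.

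The members and gene lists were chosen with earlier results of these data known, and the noise level after values had been seen. From each list, genes called in any comparison are named, at most 4 per list and comparison. The number of arrays limits the precision.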

Additional observations from a re-analysis of the deposited data

How the results depend on the processing

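Of 2971 values for single genes and probe sets under alternative settings, 331 lost a call, 53 gained one and 0 reversed a called direction. No paired structure was seen in the data: deviations from the pool means correlated by -0.02 to 0.03 between equal-numbered arrays (9 pairs) and by -0.03 to 0.02 between others (18 pairs), and no label says that equal numbers are one animal. Without the replicate block, 1 member gene (Foxp1, adjusted p = 0.0431) in place of 0 was called for L5 minus OMN, and 806 in place of 464 genes for L5 minus DL; 1422864_at was called for L5 minus DL (0.0322) and for the spinal mean minus OMN (0.0431); Irx3 (0.0232), Isl2 (0.0259) and Lhx4 (0.0219) for L5 minus OMN and Lhx4 (0.0485) for L5 minus DL were then called too. Fits without 1 array called 0 to 1 member genes for L5 minus OMN, 0 to 1 for L5 minus DL, 0 to 3 for DL minus OMN and 0 to 1 for the spinal mean minus OMN. They called 83 to 375, 55 to 259, 186 to 370 and 104 to 364 of all genes, against 394, 464, 550 and 432, and 1 to 4, 0 to 2, 3 to 7 and 3 to 6 member probe sets, against 4, 3, 7 and 6; fewer arrays leave fewer degrees of freedom.

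With a pseudocount of 1, the same 4 comparisons gave 0, 0, 0 and 0 member genes, 103, 61, 200 and 155 of all genes, and 1, 0, 3 and 3 member probe sets. With 64, member genes numbered 1 for L5 minus DL and 1 for the spinal mean minus OMN, and 602 and 814 of all genes were called for L5 minus OMN and L5 minus DL. Trended, robust variances called 1 member gene for L5 minus OMN and 946, 1153, 880 and 775 of all genes. Array weights called 676 genes for L5 minus OMN and 1 member gene for L5 minus DL. The mean of all probe sets of a gene called 1 member gene for L5 minus OMN and 1 for the spinal mean minus OMN. Entering only the arrays of the pools compared called 0 member genes, 46 genes and 0 member probe sets for L5 minus DL, and 0, 120 and 4 for DL minus OMN. With the Gapdh ratio as a covariate the counts were 0, 89 and 0 for L5 minus DL and 1, 279 and 3 for DL minus OMN, with 1 member gene for the spinal mean minus OMN. Without DL arrays 1 and 3, which leaves 1 DL array, they were 0, 0 and 0 for L5 minus DL (3007 genes at an unadjusted p under 0.05) and 1, 128 and 0 for DL minus OMN, with 1 member gene for the spinal mean minus OMN. Apart from the fits with fewer arrays, the cause was not tested.

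Both Pou3f1 probe sets, 1443381_at of Etv4, 2 of Foxp1 and 1427650_a_at, 1452530_a_at and 1452531_at of Runx1 lay near the noise level. So did 1422865_at and 1440878_at of Runx1 in L5 and OMN, and 1422864_at in OMN. This limits what these values show.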
